A study of Mus musculus with 5 samples.

Results

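The genes Des, Lrat, Ngfr, Hand2, Pdgfra, Pdgfrb, Acta2, Tagln, Postn and Dcn, 10 in all, mark hepatic stellate cells, the myofibroblasts that arise from them, and related mesenchymal cells. They were taken by symbol from a table that lists 55397 mouse genes, each symbol matched 1 row, and all 10 passed the filter on low values, as did 17105 genes in all. Their levels were compared between Akt/Notch-driven mouse liver tumors with and without late Prox1 overexpression. Des, Lrat, Ngfr and Hand2 were grouped as markers of the quiescent stellate cell, and Acta2, Tagln and Postn as markers of the activated cell. Pdgfra, Pdgfrb and Dcn were grouped as genes found in both states. These groups are labels for reading the values, and which state expresses a gene was not tested.

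The study asked what the homeobox transcription factor PROX1 does in liver tumors. RNA was sequenced in bulk from dissected liver tumors of female C57BL/6N mice that were injected at 8 weeks of age by hydrodynamic tail vein injection (HDTVI), a rapid high-volume injection by which plasmids enter mainly hepatocytes. Both groups received the Sleeping Beauty transposase driven by a CMV promoter, Akt and the NOTCH intracellular domain (NICD, with rtTA) driven by EF1a promoters, and a Tre transposon that rtTA switches on under doxycycline. In the 3 Prox1 OE libraries that transposon carried FLAG-tagged mouse Prox1 with IRES-GFP, and in the 2 Control libraries IRES-GFP alone. Both groups were fed doxycycline (6.25% in the diet) from day 21, which sets overexpression at weeks 3 to 4. Tumors were collected a week after induction or at a humane endpoint, and the labels do not say which applied to a given tumor, nor whether the tumors came from separate mice. P-values therefore measure the spread between these samples only, which may be technical. The labels name the cells transformed hepatocytes, so stellate cells and fibroblasts are host cells that were dissected along with the tumor, and no reporter marked them.

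Stellate cells lie between the hepatocytes and the sinusoidal endothelium and, when quiescent, store vitamin A as retinyl esters made by the enzyme LRAT. In injured liver and around liver tumors they can become activated: they lose their retinoid droplets, take on the smooth muscle actin encoded by Acta2, and lay down collagen and other matrix. Platelet-derived growth factors (PDGF) and transforming growth factor beta (TGF-β) are known inducers of this change. None of the 10 genes belongs to stellate cells alone. Vascular smooth muscle cells and pericytes also carry Acta2, Tagln, Des and Pdgfrb, portal fibroblasts carry Pdgfra, Dcn and Postn, and nerve sheath cells carry Ngfr.

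Library totals ran from 48740863 to 56629477 reads. Values are normalized counts, reads divided by the size factor of the library, in which 1 read was worth 0.822 to 1.18. Prox1 itself read 4153 and 4664 normalized counts in Control replicates 1 and 2. It read 48090 in Prox1 OE replicate 1, 11113 in replicate 2 and 8231 in replicate 3. All were above both Control libraries, and replicate 1 stood far above the other Prox1 OE libraries. The test across libraries did not call Prox1 (log2 fold change 1.90, SE 0.66, limma adjusted p = 0.061). It was called without Prox1 OE replicate 1 (1.12, limma adjusted p = 0.0056), without Prox1 OE replicate 3 (2.39, limma adjusted p = 0.033), under the replicate block (2.39) and by edgeR (2.36). Markers of other tissues differed as well. The mesothelial genes Msln, Upk3b and Upk1b lay at 21.2 to 123 normalized counts in the Control libraries and at 0 to 3.54 in the Prox1 OE libraries, and the muscle gene Ckm, named after its values were seen, read 111 in Control replicate 1 against 1.16 to 4.09 in the other libraries. Their part in the results on the stellate cell genes was not tested. Bulk RNA gives 1 value per gene and tumor, so fewer cells of a type and less RNA per cell cannot be told apart.

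Lrat was higher, and Acta2 and Postn were lower, in the tumors with Prox1 OE than in the Control tumors. Lrat rose 2.13-fold, Acta2 was 2.50-fold lower and Postn 1.83-fold lower, and for each of these genes no Prox1 OE library overlapped a Control library. The other 7 genes did not pass the test. Of the 10 genes, 1 was thus called higher and 2 lower, at an adjusted p under 0.05 from limma across all genes, where 33.3% of all genes tested were called (17.1% higher and 16.2% lower). The share of these genes that was called is therefore close to that of all genes. Groups did not overlap for 6 of the 10 genes, 2 higher and 4 lower, against 63.3% of all genes tested (30.9% higher and 32.4% lower).

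Sequences before the RefSeq start of the 3 genes that passed the test are shown so that the elements nearest to that start can be read. RefSeq promoter windows (build GRCm38.p6, the 250 bases before the start, 5′ to 3′ on the gene's strand) were found for 7 of the 10 genes, with no entry for Tagln, Dcn and Pdgfrb. Capitals mark TATAA and the CArG box, the element that serum response factor binds in smooth muscle genes, here allowing 1 of its 6 core bases to be G or C. Lrat (chr3:82903975-82904224, minus strand) holds TATAA 29 bases before the start and a CArG-like run 223 bases before it. Postn has 2 windows, and the one shown, nearest to the annotated gene start (chr3:54360857-54361106, plus strand), holds TATAA 26 bases before its start. The other Postn window (chr3:54359017-54359266) holds neither element. Acta2 (minus strand) holds a pair of CArG-like runs, 84 and 34 bases before the RefSeq start, each shown with 10 bases on either side (chr19:34255438-34255467 and chr19:34255388-34255417). That start lies inside the gene as GENCODE annotates it, and 217 of the 250 bases of the Acta2 window fall in a GENCODE exon, so both runs lie within the gene coordinates given for Acta2 with its values.
Lrat: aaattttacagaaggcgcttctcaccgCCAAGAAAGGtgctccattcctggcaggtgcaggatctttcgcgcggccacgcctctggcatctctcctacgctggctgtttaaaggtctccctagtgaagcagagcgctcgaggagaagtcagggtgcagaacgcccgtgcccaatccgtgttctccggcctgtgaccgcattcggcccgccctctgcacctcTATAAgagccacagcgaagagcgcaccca
Postn: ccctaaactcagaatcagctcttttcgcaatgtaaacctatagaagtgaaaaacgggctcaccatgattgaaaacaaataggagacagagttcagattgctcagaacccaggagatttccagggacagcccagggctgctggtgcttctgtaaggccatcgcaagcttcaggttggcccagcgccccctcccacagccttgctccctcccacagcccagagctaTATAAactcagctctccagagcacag
Acta2, distal: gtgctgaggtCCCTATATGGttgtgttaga
Acta2, proximal: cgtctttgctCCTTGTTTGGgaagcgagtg
Both strands were searched. Of 32851 windows of the same length, 22.8% hold TATAA on either strand, 8.59% hold at least 1 CArG-like run and 0.67% hold 2 or more. TATAA on the gene's strand, starting 40 to 20 bases before the start as in Lrat and Postn, is held by 3.52%. These matches describe the letters of the windows and do not show binding.

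Among the quiescent markers, Lrat (mm10 chr3:82892579-82903973, minus strand), the retinol-esterifying enzyme, was the gene that passed the test. Lrat measured 352 and 328 normalized counts in Control replicates 1 and 2, and 802, 602 and 790 in Prox1 OE replicates 1, 2 and 3. The lowest Prox1 OE library was 1.71 times the highest Control library. Mean levels were 340 ± 17.3 (SD, n = 2) and 731 ± 112 (SD, n = 3), a log2 fold change of 1.09 (SE 0.17, 95% interval 0.68 to 1.50, limma adjusted p = 0.0047).

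Des (chr1:75360329-75368579, plus strand) encodes desmin, the intermediate filament protein of muscle and of rodent stellate cells. Des measured 698 and 1065 in Control and 558, 845 and 703 in Prox1 OE. The Control libraries enclosed most of the Prox1 OE values, and the log2 fold change of -0.32 had an interval from -0.87 to 0.24 (limma adjusted p = 0.33). It moved to -0.013 without Control replicate 2, which held the highest value, and to -0.62 without Control replicate 1.

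Ngfr (chr11:95568818-95587735, minus strand), the low-affinity neurotrophin receptor, measured 380 and 415 in Control and 331, 251 and 311 in Prox1 OE. All Prox1 OE libraries lay below both Control libraries, the nearest at 0.873 of the lower Control value. The log2 fold change was -0.42 (SE 0.18, interval -0.85 to 0.0058) and did not pass the test (limma adjusted p = 0.11).

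Hand2 (chr8:57320983-57324633, plus strand) encodes a basic helix-loop-helix transcription factor of stellate cells and other mesenchyme. Hand2 measured 424 and 360 in Control and 244, 361 and 439 in Prox1 OE. The Prox1 OE libraries lay on both sides of the Control libraries, with an interval for the log2 fold change from -0.81 to 0.40. The antisense gene Hand2os1 covers 19.6% of the exon bases of Hand2, at up to 215 normalized counts, and whether counting used strand is not stated. The differences of Des, Ngfr and Hand2 from Lrat were themselves not tested.

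Pdgfra, Pdgfrb and Dcn are found in both stellate cell states, and none of them passed the test. Pdgfrb (chr18:61045150-61085061, plus strand), the receptor for PDGF-B and PDGF-D and a general marker of liver mesenchyme, measured 1934 and 1572 in Control and 1640, 1698 and 1603 in Prox1 OE. All 3 Prox1 OE values lay between the Control values, and the interval for the log2 fold change ran from -0.38 to 0.22. Pdgfra (chr5:75152292-75198215, plus strand), the other PDGF receptor, measured 564 and 437 in Control and 512, 426 and 447 in Prox1 OE. These ranges overlapped too, with an interval from -0.52 to 0.30. Both log2 fold changes turned above 0 without Control replicate 1 (0.067 for Pdgfrb and 0.076 for Pdgfra).

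Dcn (chr10:97479609-97518143, plus strand) encodes decorin, a small proteoglycan that binds collagen fibrils and TGF-β. Dcn measured 6080 and 6640 in Control and 7748, 7187 and 8081 in Prox1 OE. Each Prox1 OE library was above both Control libraries, by a factor of 1.08 at the nearest pair. The log2 fold change of 0.27 (SE 0.12, interval 0.00074 to 0.54) did not pass the test (limma adjusted p = 0.11).

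Of the activated markers, Acta2 and Postn fell and Tagln did not pass the test. Acta2 (chr19:34241090-34255590, minus strand), the smooth muscle actin that defines the myofibroblast, measured 8180 and 11977 in Control and 3492, 5135 and 3480 in Prox1 OE. The highest Prox1 OE library reached 0.628 of the lowest Control library. Mean levels were 10079 ± 2685 (SD, n = 2) and 4036 ± 952 (SD, n = 3), a log2 fold change of -1.32 (SE 0.23, interval -1.85 to -0.79, limma adjusted p = 0.0058). Acta2 shares coding sequence with the other muscle actins, and how the counting assigned shared reads is not stated.

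Postn (chr3:54361109-54391037, plus strand) encodes periostin, a matrix protein made by activated fibroblasts. Postn measured 7485 and 7127 in Control and 4430, 4117 and 3509 in Prox1 OE. Replicates lay close together in both groups (7306 ± 253, SD, n = 2, and 4019 ± 468, SD, n = 3), and the groups were well apart. The log2 fold change was -0.87 (SE 0.13, interval -1.18 to -0.56, limma adjusted p = 0.0040), although without Control replicate 1 the call was lost (-0.83, limma adjusted p = 0.054).

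Tagln (chr9:45929619-45936058, minus strand) encodes transgelin, an actin-binding protein of smooth muscle. Tagln measured 6208 and 9254 in Control and 3237, 5702 and 4896 in Prox1 OE. All Prox1 OE libraries were below both Control libraries, but the nearest reached 0.918 of the lower Control value. The log2 fold change was -0.76 (SE 0.26, interval -1.37 to -0.14), just outside the threshold (limma adjusted p = 0.062), and it ranged from -1.04 without Control replicate 1 to -0.47 without Control replicate 2. DESeq2 on the recovered reads called it (-0.74, adjusted p = 0.026). The antisense gene Gm48529 covers 62.4% of the exon bases of Tagln, at up to 140 normalized counts in any library, and Pcsk7 on the opposite strand shares 108 bases.

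**Figure D1:**
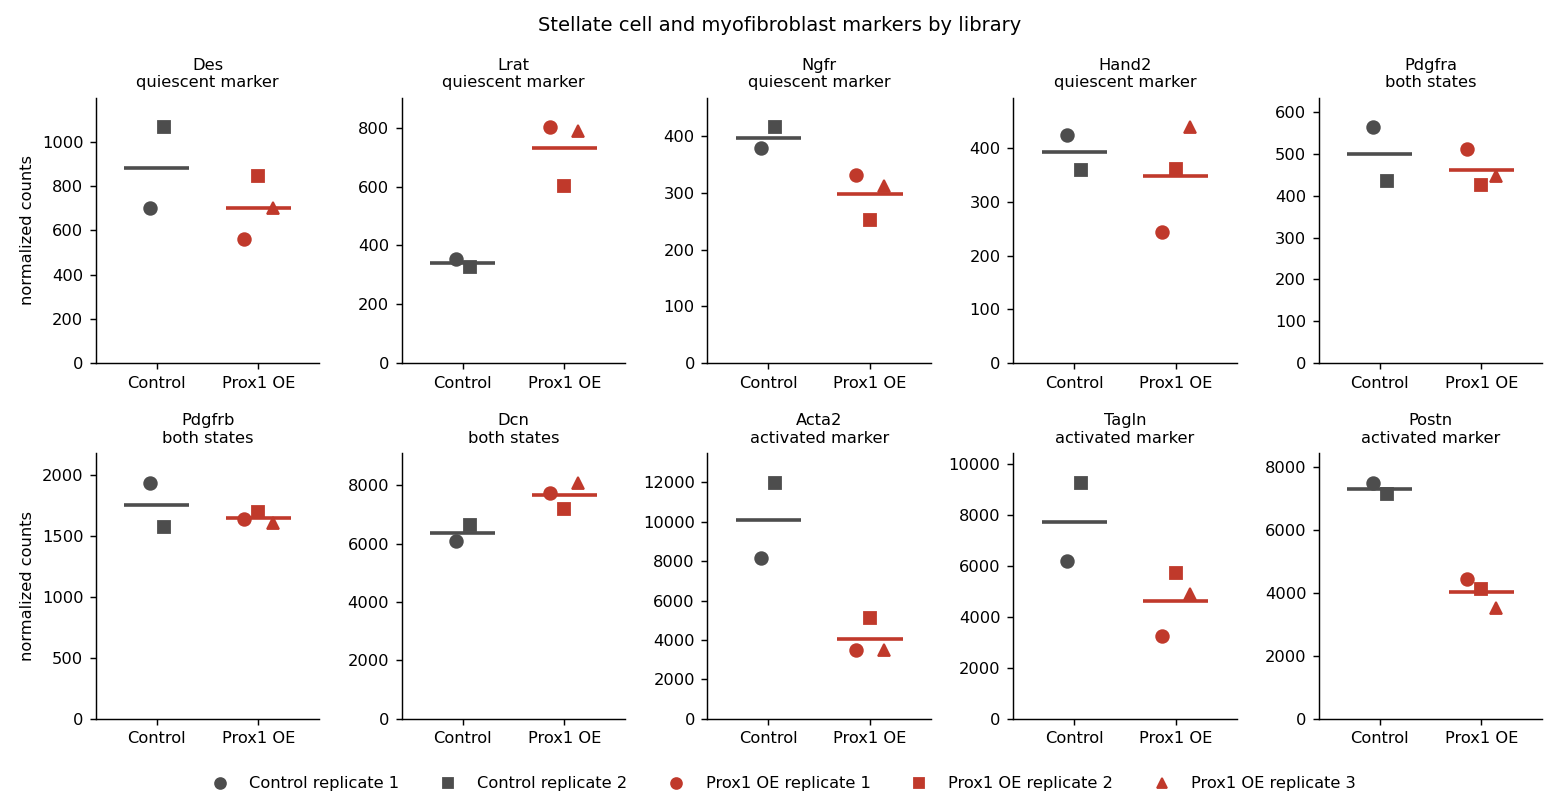
Normalized counts (vertical axes, each starting at 0) of the 10 genes in 2 Control and 3 Prox1 OE libraries; points are libraries, with a marker shape for each replicate number, and bars are group means. Lrat lies between 602 and 802 in Prox1 OE against 328 and 352 in Control, and Acta2 and Postn lie lower in every Prox1 OE library, while the Pdgfrb values of Prox1 OE fall between those of Control.

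The lowest Prox1 OE library differed between the 10 genes. Of the genes called and Tagln, replicate 2 lay nearest to the Control libraries for Lrat, Acta2 and Tagln, and replicate 1 for Postn. Replicate 1, with the most Prox1, was the lowest Prox1 OE library for Des, Hand2 and Tagln, replicate 2 for Lrat, Ngfr, Pdgfra and Dcn, and replicate 3 for Pdgfrb, Acta2 and Postn. Without replicate 1 the log2 fold changes of the called genes were 1.02 for Lrat, -1.23 for Acta2 and -0.94 for Postn, and all 3 kept their calls. Acta2 ranged from -1.59 to -1.04 and Lrat from 1.02 to 1.22 over the fits that left out 1 library each, with highest adjusted p-values of 0.045 and 0.0495. With a Control library left out, the remaining one was assumed to vary like the Prox1 OE libraries.

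**Figure D2:**
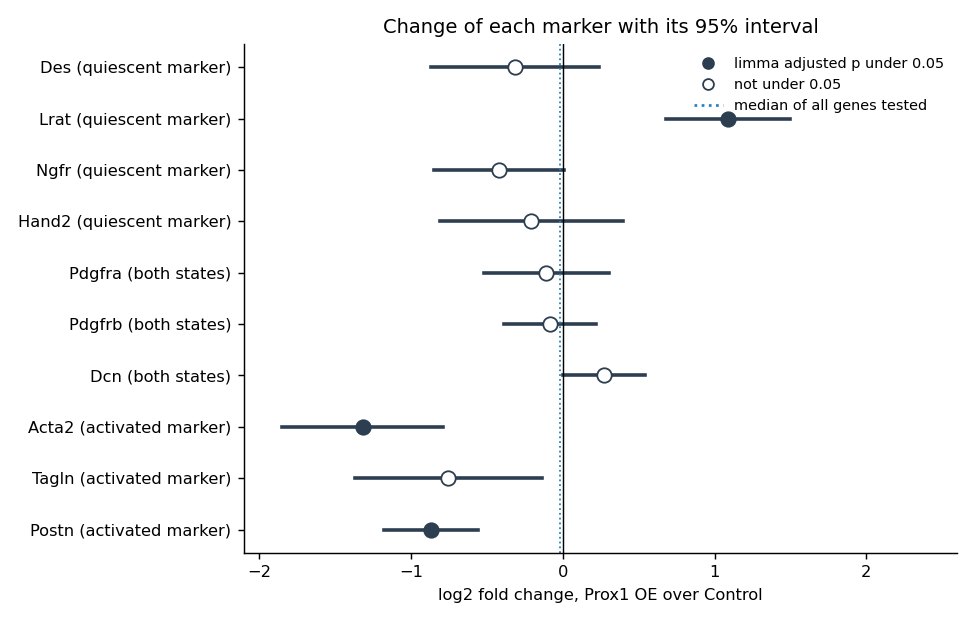
Log2 fold change of each gene, Prox1 OE over Control (horizontal axis), with the 95% interval from limma as a line; filled points have an adjusted p under 0.05, and the dotted line is the median of all genes tested (-0.015). The intervals of Lrat, Acta2 and Postn lie well away from 0, that of Tagln ends at -0.14, that of Dcn begins at 0.00074, and those of the other 5 genes include 0.

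**Figure D3:**
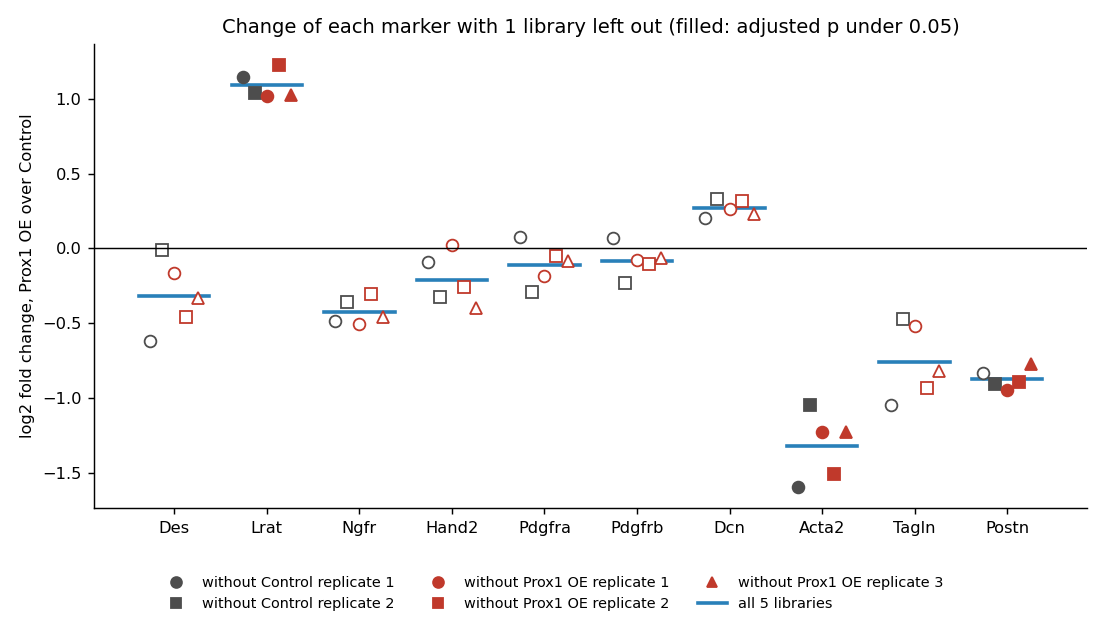
Log2 fold change of each gene, Prox1 OE over Control (vertical axis), in fits that leave out 1 library each (points, filled where the adjusted p was under 0.05) and in the fit on all 5 libraries (blue bars). Lrat, Acta2 and Postn keep their side of 0 throughout, Postn is not called without Control replicate 1, and Hand2, Pdgfra and Pdgfrb each cross 0 in 1 fit.

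The result depended on the scaling of the libraries for some genes. With the total reads of a library as its size, in place of the size factors, the median over all genes tested moved from -0.015 to -0.44 on the log2 scale, and 8.62% of genes were called higher and 39.9% lower. Under that scaling Des, Ngfr, Pdgfrb and Tagln were also called lower, and Dcn turned to -0.16. Measured from that median, Lrat was at 1.10, Dcn at 0.28, Pdgfrb at -0.071, Des at -0.31, Ngfr at -0.41, Tagln at -0.74, Postn at -0.86 and Acta2 at -1.31. The summed level of 8 hepatocyte genes rose from 694912 and 1119710 normalized counts in Control to between 2341280 and 3710840 in Prox1 OE, and its part in that shift was not tested.

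Ratios between genes of the same library are free of this scaling. Acta2 over Lrat was 23.2 and 36.5 in Control and 4.36, 8.53 and 4.40 in Prox1 OE, a mean of 29.9 ± 9.41 (SD, n = 2) against 5.76 ± 2.40 (SD, n = 3) and thus 5.18-fold lower. Postn over Lrat was 21.2 and 21.7 in Control and 5.53, 6.84 and 4.44 in Prox1 OE, 3.83-fold lower, and Tagln over Lrat was 3.49-fold lower. Both groups were fully separated in each of these ratios, which all share Lrat as the denominator. For Lrat, Acta2, Postn and Tagln the groups did not overlap, with Lrat higher and the other genes lower in Prox1 OE. Separation of these ratios was therefore bound to follow, and it adds no evidence to the values of the single genes.

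Pdgfrb, the receptor that stellate cells of both states carry, served as a second denominator. Lrat over Pdgfrb was 0.182 and 0.209 in Control and 0.489, 0.354 and 0.493 in Prox1 OE, 2.28-fold higher. Acta2 over Pdgfrb was 4.23 and 7.62 against 2.13, 3.02 and 2.17, and Postn over Pdgfrb was 3.87 and 4.54 against 2.70, 2.43 and 2.19. Dcn over Pdgfrb did not overlap either, but by a narrow margin (3.14 and 4.23 against 4.72, 4.23 and 5.04). Tagln, Des, Ngfr, Hand2 and Pdgfra over Pdgfrb overlapped between the groups.

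**Figure D4:**
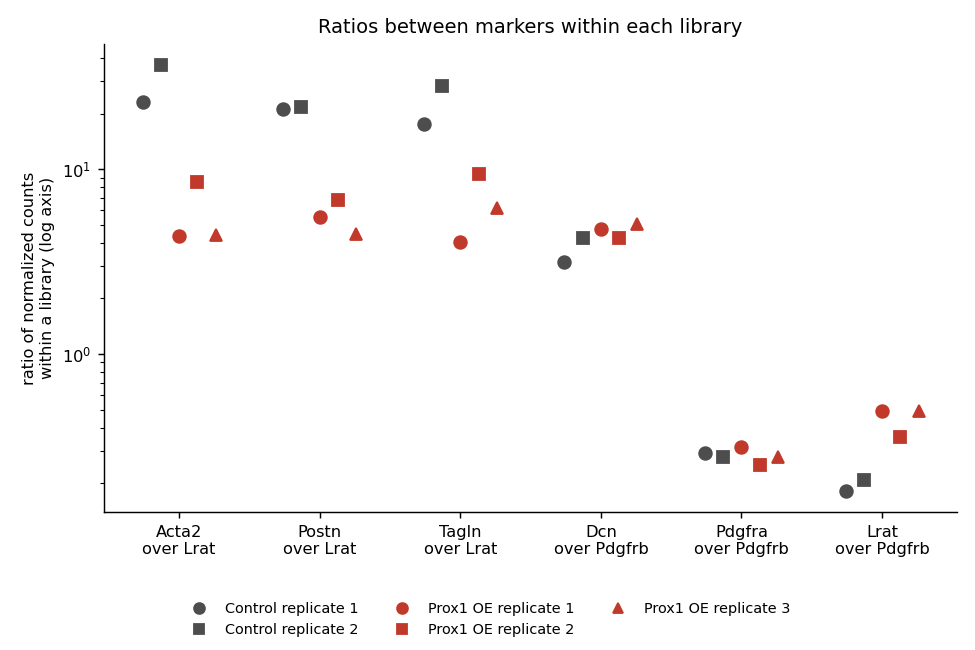
Ratios of normalized counts between 2 genes of the same library (log axis), with a point for each of 2 Control and 3 Prox1 OE libraries. The ratios of Acta2, Postn and Tagln to Lrat lie at 17.6 to 36.5 in Control and at 4.04 to 9.48 in Prox1 OE, whereas Pdgfra over Pdgfrb stays between 0.251 and 0.312 in all 5 libraries.

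A summary of activated against quiescent markers lay lower in Prox1 OE. Its activated mean was lower there, while its quiescent mean overlapped between the groups. For each library, the mean of the centered log2 values of Acta2, Tagln and Postn minus that of Des, Lrat, Ngfr and Hand2 was 0.48 and 0.74 in Control and -0.46, -0.12 and -0.64 in Prox1 OE. The difference of -1.02 compares with a pooled SD of 0.24. Without Lrat the values of this summary were 0.31 and 0.49 against -0.23, -0.06 and -0.51, and the difference was -0.67. The activated mean alone, with its genes centered, was 0.41 and 0.76 in Control and -0.56, -0.14 and -0.48 in Prox1 OE. The quiescent mean alone, with Lrat, was -0.07 and 0.03 in Control and -0.10, -0.02 and 0.16 in Prox1 OE. The median log2 fold change was -0.26 for the 4 genes grouped as quiescent, -0.082 for the 3 of both states and -0.87 for the 3 grouped as activated. Lrat was the 1 gene of the quiescent group above 0.

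Per kilobase of exon, the actin gene Acta2 and the actin-binding Tagln were the most abundant of the set in both groups. In Control, Acta2 and Tagln averaged 4590 and 3889 normalized counts per kb and overlapped, followed by Dcn (1089), Postn (840), Pdgfrb (320), Des (235), Hand2 (167), Ngfr (115), Lrat (63.6) and Pdgfra (49.9). In Prox1 OE, Tagln (2320) and Acta2 (1838) again overlapped, followed by Dcn (1314), Postn (462), Pdgfrb (301), Des (187), Hand2 (148), Lrat (137), Ngfr (86.5) and Pdgfra (46.1). Lrat thus stood below Ngfr in both Control libraries and above it in all 3 Prox1 OE libraries. Des, Hand2 and Lrat overlapped one another in Prox1 OE. In Control, Lrat and Pdgfra were the lowest, and the per-kb values of the pair did not overlap (61.3 and 65.9 against 43.5 and 56.2).

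Other genes that stellate cells use were read from lists, starting with the quiescent state. Of 15 further genes of quiescent stellate cells, 14 were tested, 4 rose, 1 fell and 9 did not pass (median log2 fold change 0.25). With total reads as library size 3 rose and 4 fell, and the median was -0.18. With 5 of 14 called, the share is close to the 33.3% of all genes tested. Angptl6 (1.50), Gdf2, which encodes the ligand BMP9 (1.38), and Colec11, a collectin (1.29), rose most, and Reln (0.55), named after its values were seen, also rose. Colec11 measured 629 and 812 in Control and 1511, 1547 and 2282 in Prox1 OE, and Gdf2 198 and 307 against 509, 612 and 854. Hepatocytes also express Angptl6 and Colec11, and the part of hepatocyte RNA in these values was not tested. None of the list was called higher without Control replicate 1. Nes, also named after its values were seen, fell (-1.06), and none of the list was called lower without Control replicate 2.

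Contractile genes other than Acta2 and Tagln came next. For this list and those after it, 16.2% of all genes tested were called lower, or 39.9% with total reads as library size. Of 12 tested, 8 fell, none rose and 4 did not pass (median -0.80, and -1.23 with total reads), with calponin 1 (Cnn1, -2.40), the enteric actin Actg2 (-1.46) and filamin A (Flna, -1.10) falling most. Cnn1 was at -1.69 and not called without Control replicate 1 (limma adjusted p = 0.082) and at -3.12 without Control replicate 2, where Actg2 was not called (limma adjusted p = 0.075). Cnn1 measured 509 and 188 in Control and 67.5, 74.3 and 38.2 in Prox1 OE. Flna measured 23610 and 23686 in Control and 11570, 12305 and 9341 in Prox1 OE, and it is expressed in most cell types. Cald1 (0.29) and Mylk (0.21), likewise singled out after their values were seen, did not pass. The number that fell was 2 without either Control replicate and 5 without Prox1 OE replicate 3.

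The matrix list held genes of activated cells other than Postn. Of 12 tested, 7 fell, none rose and 5 did not pass (median -0.73). With total reads 11 fell, where 39.9% of all genes tested did, and the median was -1.16. Timp1, an inhibitor of matrix metalloproteinases (-1.55), and the type I collagen genes Col1a1 (-1.23) and Col1a2 (-0.95) fell most, Col1a2 losing its call without Control replicate 1 (limma adjusted p = 0.058). Col1a1 measured 31810 and 29586 in Control and 13387, 15445 and 10743 in Prox1 OE. Lum and Bgn, which like Dcn encode small leucine-rich proteoglycans, were singled out after their values were seen and did not pass (-0.21 and -0.074). The number that fell was 2 without Control replicate 1 and 3 without Control replicate 2.

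Ligands that activate stellate cells were tested beside the receptors Pdgfra and Pdgfrb. Of 10 ligand genes, 7 fell, none rose and 3 did not pass (median -1.11, and -1.54 with total reads). Tgfb2 (-1.81), Pdgfb (-1.81) and Ccn2 (-1.80), the gene of connective tissue growth factor, fell most, Ccn2 losing its call without either Control replicate (-2.13 without replicate 1 and -1.47 without replicate 2). Pdgfb, which encodes the main ligand of PDGFRB, measured 1939 and 1552 in Control and 617, 513 and 382 in Prox1 OE, with a log2 fold change of -1.81 (SE 0.22, limma adjusted p = 0.0026). Tgfb2 measured 3245 and 2575 in Control and 1014, 813 and 674 in Prox1 OE. Pdgfd fell too (-1.14), whereas Pdgfa (-0.0032) and Tgfb1 (0.091) did not pass, these 3 being named after their values were seen. The number that fell was 3 without Control replicate 1 and 4 without Control replicate 2. Which cells made these ligands cannot be read from bulk RNA, and Tgfb2 and Pdgfb are also expressed by bile duct-like and endothelial cells.

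Lists for neighboring mesenchymal cells were read in the same way. All 6 pericyte and mural genes fell (median -0.76, and -1.20 with total reads), led by Mcam (-1.36), Cspg4 (-1.08), which encodes NG2, and Rgs5 (-0.77), although 1 was called without Control replicate 1 and 2 without Control replicate 2. Rgs5 measured 31073 and 30128 in Control and 17209, 19395 and 17284 in Prox1 OE. With total reads 4 of 6 pan-mesenchymal genes fell, 0 rose and the median was -1.10, and with no filter 1 was called lower. In the main fit 3 of these pan-mesenchymal genes fell and 1 rose (median -0.66). Vim was at -1.01, Col6a2 at -0.67 and the transcription factor Tcf21, another stellate cell and fibroblast gene, at 0.80. Leaving out any library but Control replicate 2 left 1 of these called lower, and the call of Tcf21 was lost on leaving out any library but Prox1 OE replicate 1, with no filter (limma adjusted p = 0.051) and with total reads (0.37, limma adjusted p = 0.16). Tcf21 measured 325 and 396 in Control and 502, 604 and 800 in Prox1 OE. Of 10 portal fibroblast genes 8 were tested, Fbln2 fell (-1.20) and Mgp rose (0.63, a call lost on leaving out any library but Prox1 OE replicate 1, with no filter and with total reads). The list's median was 0.087, and with total reads 0 genes rose, 3 fell and the median was -0.34. In the contractile, matrix, ligand and mural lists, 0 genes were higher in limma at an unadjusted p under 0.05, and 0 were called higher by edgeR or DESeq2.

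**Figure D5:**
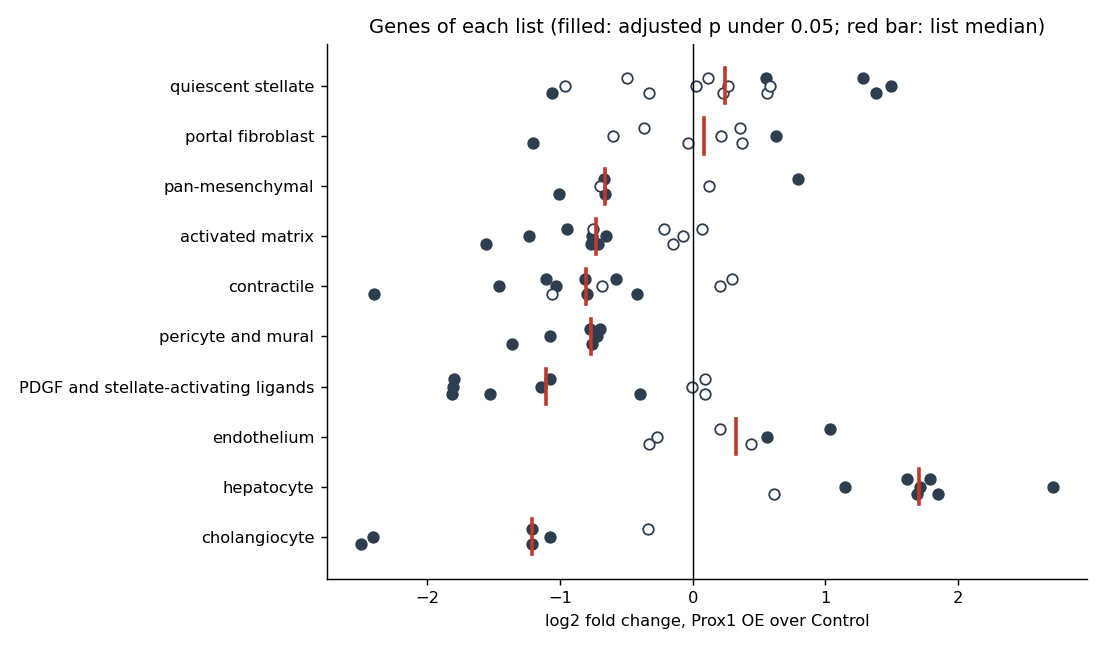
Log2 fold change, Prox1 OE over Control (horizontal axis), of the tested genes of 10 lists; each point is a gene, filled where the limma adjusted p was under 0.05, and red bars are list medians. The contractile, matrix, mural and ligand lists lie mostly below 0 and the hepatocyte list above it, while the quiescent stellate list spreads from -1.06 to 1.50 with a median of 0.25 that turns to -0.18 with total reads as library size.

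Markers of cell types outside the mesenchyme were read beside these genes. Of 8 hepatocyte genes 7 rose (median 1.70), with Tat at 2.72 (2.23 to 3.35 with 1 library left out), Cyp2e1 at 1.85 and Ttr at 1.79. Of 6 cholangiocyte genes 5 fell (median -1.21), with Krt7 at -2.50, Krt19 at -2.41 and Cldn7 at -1.21. Of the endothelial, macrophage, Schwann cell and muscle lists, at most 2 genes each were called, where 33.3% of all genes were. Of 6 endothelial genes Stab2 (1.04) and Tek (0.56) rose. The other 4, named after their values were seen, did not pass: the pan-endothelial Pecam1 (-0.27) and Cdh5 (-0.33), and Kdr (0.44) and Eng (0.21). With total reads 1 endothelial gene rose and 2 fell, Tek was not called, and the list's median went from 0.32 to -0.11. Of 6 macrophage and leukocyte genes Clec4f, a Kupffer cell lectin, rose (1.58). Of 6 mesothelial genes 4 fell. The summed level of that list was 615 and 443 normalized counts in Control against 329, 195 and 234 in Prox1 OE, of which Gpm6a, which did not pass and is named after its values were seen, made up 268 and 269 against 280, 172 and 199. Of the Schwann cell and nerve list 5 of 6 genes were tested and S100b fell (-1.27), while Sox10, the defining Schwann cell gene and likewise named after its values were seen, had at most 4.11 normalized counts in any library and 0 in 3 of them. Of the striated muscle list 4 of 6 were tested and Mb fell, from 16.4 and 37.3 normalized counts to between 0 and 3.54. Without Control replicate 1 the calls of Tat, Cyp2e1, Ttr, Cldn7, Stab2, Tek, Clec4f, Upk3b, S100b and Mb were lost, while those of Krt7, Krt19, Msln and Upk1b held in each fit that left out 1 library. Without Control replicate 2 those of Tek, S100b and Mb were lost, without Prox1 OE replicate 2 those of Tat, Cyp2e1 and Tek, and without Prox1 OE replicate 3 that of Tek. The part of these cell types in the changes of Lrat, Acta2 and Postn was not tested.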

How the data were processed

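Libraries from dissected liver tumors (2 Control, 3 Prox1 OE) were prepared by the authors with the dUTP protocol, which keeps strand, sequenced as read pairs, and mapped with STAR to mm10 per the study's methods and the labels. The counting tool, its use of strand and its treatment of shared reads are not given in the sources used here. The deposited values are a signal, reads of a gene divided by a DESeq2 size factor. All columns of per-sample values were assigned. Values were whole multiples of 1 read within a tolerance of 0.001 for 100% of values, so whole reads were recovered. The authors' deposited comparison (mean, log2 fold change, p-value and adjusted p-value) was not used.

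Genes with a mean of at least 10 normalized counts (17105 of 55397) were tested with limma 3.58.1 in R 4.3.3 (lmFit, eBayes with trend) on log2(normalized count + 1), two-sided, with Benjamini-Hochberg adjustment over all genes tested and called at an adjusted p under 0.05. On that scale changes of low genes are understated. Because the values were normalized, edgeR 4.0.16 and DESeq2 1.42.0 ran on recovered reads as alternatives. The others were TMM factors, total reads as library size, pseudocounts of 0.1 and 10, no filter, a mean of at least 50, the replicate number as a block, and leaving out each library. The fits were tested on simulated counts.

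Same-group libraries were distinct, with a chi-square per degree of freedom of 36.2 to 115 between them. A count of 3 reads corresponds to 2.46 to 3.54 normalized counts, and covers counting error only. Deviations of same-numbered libraries from their group means had correlations of 0.137 and 0.0156 in 2 pairs, and the labels name no shared animal or day, so numbers were not taken to pair the libraries.

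The genes and the 14 lists (115 genes, all found) were chosen with earlier results of these data known. Genes named from a list are the called ones, limited to the 3 with the largest change, and all others carry a remark that they were picked with their values in view. Coordinates, exon lengths and overlaps came from GENCODE for GRCm38, the same assembly as mm10 (55137 identifiers found, 99.5%), and promoter windows from RefSeq.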

Additional observations from a re-analysis of the deposited data

How the results depend on the processing

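Over 14 alternatives, the log2 fold changes of the 10 genes gave 140 values, of which 129 kept their direction and side of the threshold, 6 gained a call, 1 lost it and 4 changed sign. The sign changes were Hand2 at 0.026 without Prox1 OE replicate 1 (range -0.39 to 0.026 with 1 library left out), Pdgfra at 0.076 (-0.29 to 0.076) and Pdgfrb at 0.067 (-0.23 to 0.067) without Control replicate 1, and Dcn at -0.16 with total reads as library size. The lost call was Postn without Control replicate 1. Total reads called 1475 genes higher and 6833 lower, 17.8% of the calls being higher against 51.4% with size factors, and called 7 of the 10 genes, 6 of them lower. With 1 library left out, 1158 to 7491 genes were called, 681 to 3738 higher and 477 to 3753 lower, against 5702 (2933 and 2769) with all libraries. The fewest calls came without Control replicate 1 (1158) and without Control replicate 2 (2270), and 1740 genes were called lower without Prox1 OE replicate 2. Of the 10 genes, 2 to 3 were called in these fits and 1 to 2 were called lower. Under the replicate block, in which Prox1 OE replicate 3 carries no weight, 4 of the 10 genes were called, Tagln (-0.82, limma adjusted p = 0.0023) being added, and 5262 genes were called in all. DESeq2 called 6647 genes and edgeR 5761. The activated minus quiescent difference ranged from -1.16 to -0.89. For Prox1, which was not called with all libraries, and the list genes named by rule, which were (the other list genes are not in this tally), 434 values kept their side of the threshold, 48 of list genes lost a call and 4 of Prox1 gained one. The causes of these differences were not tested. The lowest value of any of the 10 genes was 244 normalized counts (Hand2 in Prox1 OE replicate 1), far above the 2.46 to 3.54 to which 3 reads correspond.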
